A study of Mus musculus with 8 samples.

Results

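B and plasma cell transcripts were followed through 7 genes: Ms4a1, Cd79a, Cd79b, Pax5, Blk, Jchain and Cd22. They were taken as every non-control spot of the scanner files whose gene name was one of these symbols, which gave 12 probes with 1 spot each, out of 37008 gene names on the array. Of the 96 probe values on 8 arrays, 46.9% were well above background by the scanner software's own flag, and 0 were saturated. A probe entered the tests if 2 or more of the 8 arrays had it well above background, which 7 probes of 5 genes did. Cd79a and Blk were not well above background on any array.

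B cells carry an antibody molecule on their surface as the antigen receptor. Cd79a and Cd79b are the pair of chains that pass its signal on, Blk is a Src-family kinase next to the receptor, Cd22 is an inhibitory coreceptor that binds sialic acid, and Ms4a1 encodes CD20, a surface protein of B cells that is lost as they become plasma cells. Pax5 is the transcription factor that keeps B cells committed to their lineage, and it is switched off in plasma cells. Jchain encodes the joining chain of polymeric IgM and IgA and is made by antibody-secreting cells. In multiple sclerosis and in its mouse model, experimental autoimmune encephalomyelitis (EAE), B cells and plasma cells can collect in the meninges and the spinal cord, and antibodies against CD20 are used to treat the disease.

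RNA labelled as astrocytic, from the spinal cord of C57Bl/6J mice, was hybridised to 8 single-colour Agilent arrays, 1 for each combination of genotype and condition. The genotypes were wild type (titles FL or F/F) and Cx47 deficient (titles icKO), and per the series title connexin 47 was removed conditionally in oligodendroglia. The conditions were naive, EAE (called acute EAE here), EAE with iguratimod, an anti-inflammatory drug, and chronic EAE, whose titles also carry "p50", which was not interpreted. The promoter that drove the deletion, the age of the mice, how cells were isolated and whether mice were pooled are not given in the sources used here. Separate animals are not named in the labels, and no group has more than 1 array. In the fit of condition plus genotype, the p-values rest on the scatter of the condition-matched array pairs around 1 shared genotype difference. That scatter can hold technical variation, variation between mice and genotype effects confined to some conditions, and these cannot be told apart.

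Astrocyte markers were present on every array, with 10 of 10 well above background. Their mean log2 level was 2.98 to 3.26 on the 6 naive, acute and iguratimod arrays, 1.87 on the wild-type chronic array and 2.59 on the Cx47-deficient chronic array. Oligodendrocyte (7 of 7) and neuron markers (6 of 6) were also well above background on every array. The second slide held only the 2 chronic arrays and had a lower spike-in slope (0.764 and 0.762, against 0.92 to 1.07 on the first), so the chronic state and the slide cannot be told apart.

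Probes of the same gene did not measure alike in these data, so the sequences of 4 of them are shown, 5′ to 3′ as the files give them. The pair for Cd22 is shown because the first was well above background on 2 Cx47-deficient arrays alone, and the second on none. The Pax5 and Blk probes are the brighter Pax5 probe and the only Blk probe.
Cd22 A_51_P448140: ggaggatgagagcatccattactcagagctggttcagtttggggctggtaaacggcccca
Cd22 A_52_P466268: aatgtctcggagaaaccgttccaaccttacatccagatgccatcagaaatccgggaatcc
Pax5 A_66_P128859: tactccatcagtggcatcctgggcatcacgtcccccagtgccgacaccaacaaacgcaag
Blk A_52_P15405: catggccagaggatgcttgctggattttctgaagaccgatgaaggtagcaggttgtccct
In the mm9 coordinates of the files these are chr7:31651590-31651649, chr7:31661143-31662467, chr4:44692322-44692381 and chr14:63997333-63998470, all on the minus strand. The second Cd22 probe and the Blk probe, each 60 bases long, spread over 1325 and 1138 bases of genome, so each crosses a splice junction. The other tested probes lie at chr11:106172780-106172839 for Cd79b, chr5:88949919-88949978 for Jchain and chr7:31651249-31651308 for Cd22 A_55_P2016004. Ms4a1 A_66_P120649 and A_55_P2802151 lie at chr19:11324334-11324393 and chr19:11325409-11325468. These tested probes are also on the minus strand. The Cd79a probe, which was not tested, lies at chr7:25684357-25684614 on the plus strand, and its 60 bases spread over 258 bases of genome. A gene annotation of mm9 was not used here, so exons and untranslated regions are not assigned.

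All levels below are log2 processed signals minus the array's 75th percentile, so 0 is that percentile. They are given in the order wild type then Cx47 deficient. Levels of different probes are not comparable. With 1 array per group, no order of the groups was testable beyond the fits.

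**Figure D1:**
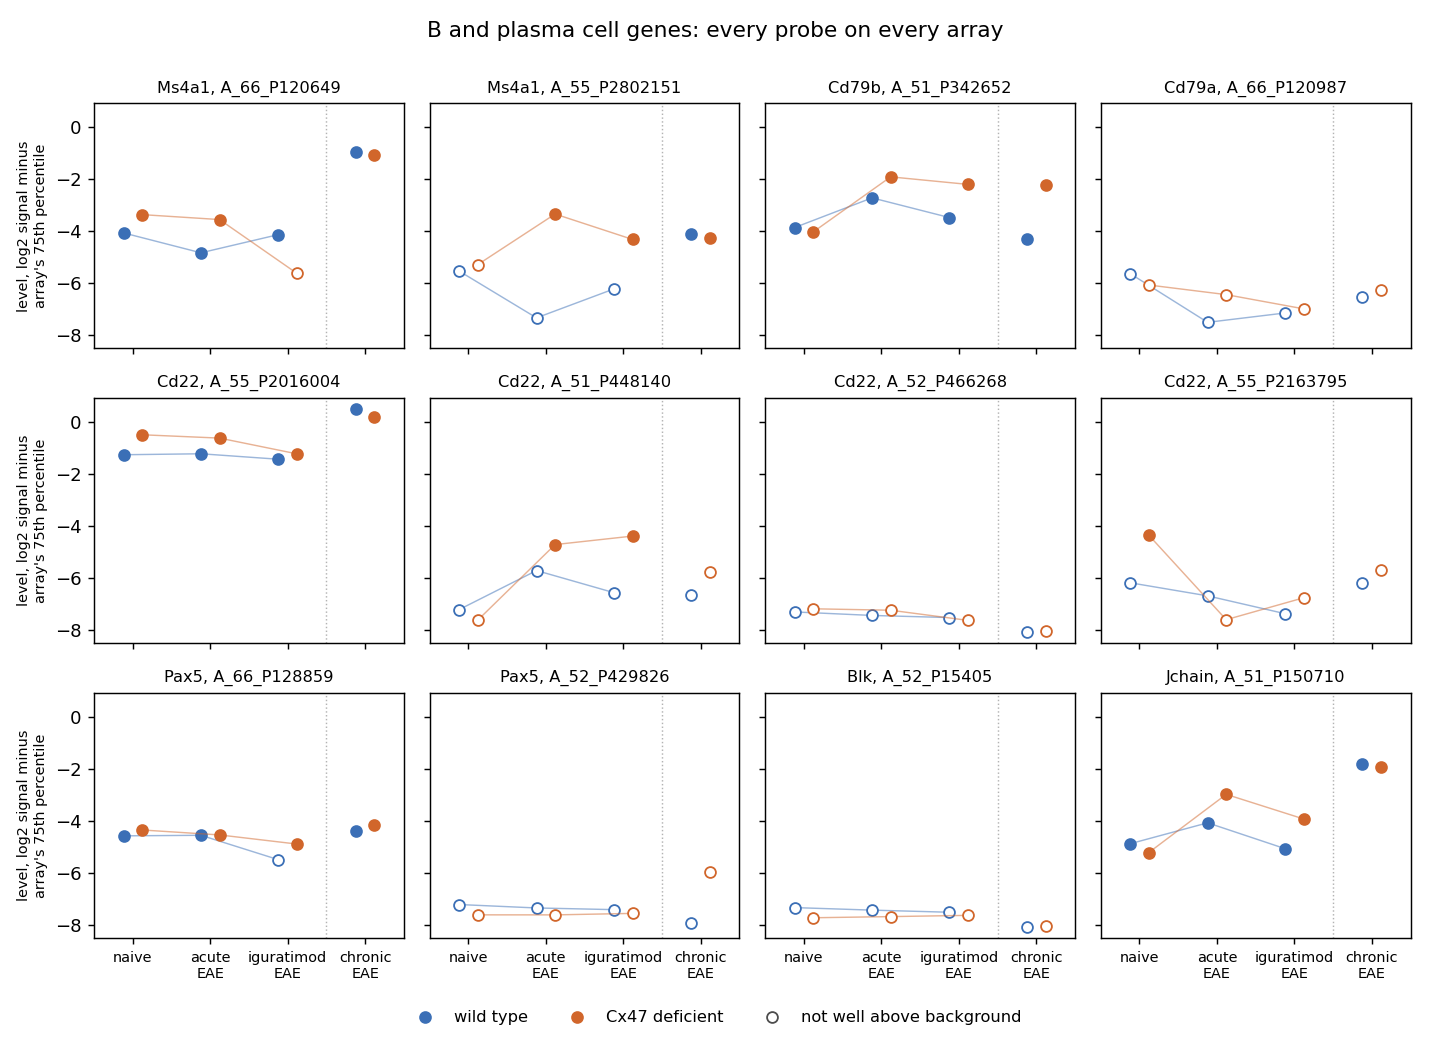
Level of each of the 12 probes on each of the 8 arrays (y axis, log2 signal minus the array's 75th percentile; x axis, condition). Filled points were well above background, open points were not, thin lines join the 3 arrays of a genotype on the first slide, and the dotted line sets off the chronic arrays on their own slide. Cd79b and Jchain are filled on all arrays, while Cd79a, Blk, 1 Pax5 probe and 1 Cd22 probe are open on all.

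Of the receptor's signalling pair, Cd79b was well above background on all 8 arrays. It stood at -3.87 and -4.03 in naive mice, -2.72 and -1.92 in acute EAE, -3.48 and -2.21 with iguratimod and -4.30 and -2.24 in chronic EAE. The 3 highest arrays were the Cx47-deficient arrays with EAE of any state, and the lowest was the wild-type chronic array. Its partner Cd79a read between -7.51 and -5.64 and was not well above background anywhere. Blk read between -8.07 and -7.33, likewise dim on all 8 arrays.

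Ms4a1 had 2 probes. The brighter, A_66_P120649, read -4.07 and -3.37 in naive mice, -4.84 and -3.56 in acute EAE, -4.14 and -5.63 with iguratimod and -0.97 and -1.07 in chronic EAE, and it was dim on the Cx47-deficient iguratimod array alone. Both chronic arrays stood above all others on this probe. The other probe, A_55_P2802151, was well above background on 4 arrays: -3.35 in Cx47-deficient acute EAE, -4.32 in the Cx47-deficient iguratimod array, and -4.12 and -4.25 in chronic EAE. On this probe the highest array was Cx47-deficient acute EAE, and both naive arrays and the wild-type acute and iguratimod arrays were dim, at -7.34 to -5.29. So the Cx47-deficient iguratimod array was the lowest of all on 1 probe and the fourth highest on the other, and only 1 of them set the chronic arrays apart.

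Cd22 had 4 probes, which disagreed as well. A_55_P2016004, of whose bases 76.7% are A or C, was well above background on all arrays: -1.26 and -0.50 in naive mice, -1.23 and -0.62 in acute EAE, -1.44 and -1.23 with iguratimod, and 0.49 and 0.20 in chronic EAE. The chronic arrays were the 2 highest. A_51_P448140, the first sequence shown above, was well above background only at -4.72 in Cx47-deficient acute EAE and -4.39 in Cx47-deficient iguratimod-treated EAE, and lay between -7.62 and -5.71 on the dim arrays. A_55_P2163795 was well above background only at -4.35 on the Cx47-deficient naive array, and A_52_P466268 on none.

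The B lineage factor Pax5 varied least among the genes tested. A_66_P128859 read -4.58 and -4.35 in naive mice, -4.55 and -4.54 in acute EAE, -5.49 (dim) and -4.89 with iguratimod, and -4.38 and -4.15 in chronic EAE, a range of 1.34. The second Pax5 probe was dim on all 8 arrays, between -7.93 and -5.96.

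Jchain, the plasma cell gene, was well above background on every array. It stood at -4.88 and -5.22 in naive mice, -4.08 and -2.98 in acute EAE, -5.07 and -3.93 with iguratimod and -1.82 and -1.94 in chronic EAE. The 2 chronic arrays were highest, Cx47-deficient acute EAE came next, and the wild-type iguratimod array lay beside the naive pair.

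The first comparison asks whether Cx47 deficiency went with other levels of these genes at matched conditions. Cd79b was 1.75-fold higher in the Cx47-deficient array in acute EAE, 2.42-fold higher with iguratimod and 4.15-fold higher in chronic EAE, and 1.12-fold lower in the naive pair. Jchain was 2.13-fold and 2.21-fold higher in acute and iguratimod-treated EAE, but 1.09-fold lower in the chronic and 1.27-fold lower in the naive pair. Ms4a1 was higher in Cx47-deficient acute EAE on both probes (2.42-fold on A_66_P120649 and at least 3.77-fold on A_55_P2802151). With iguratimod its probes pointed in opposite directions, at least 2.46-fold lower and at least 1.97-fold higher. A ratio is written as at least N-fold where the dim array was set to the lowest signal well above background on it. In the naive pair Ms4a1 A_66_P120649 was 1.63-fold higher, and in the chronic pair the Ms4a1 probes were 1.07-fold and 1.096-fold lower. Cd22 A_55_P2016004 was 1.70-fold, 1.52-fold and 1.15-fold higher in the naive, acute and iguratimod pairs and 1.22-fold lower in the chronic pair. Cd22 A_51_P448140 was at least 1.46-fold and at least 1.88-fold higher in Cx47-deficient acute and iguratimod-treated EAE. Differences between single arrays have no replicate check.

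**Figure D2:**
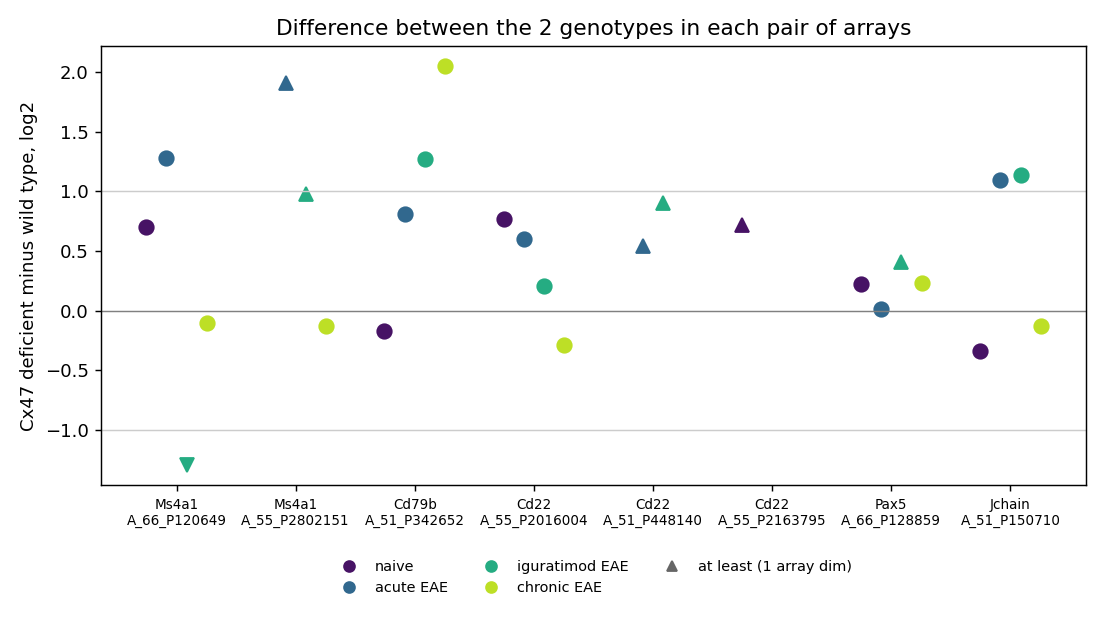
Difference between the Cx47-deficient and the wild-type array (y axis, log2) for each probe that was well above background on at least 1 array of a pair (x axis), by condition. Circles are measured differences, triangles are bounds with 1 dim array, and grey lines mark 2-fold. Cd79b lies above 0 in the 3 EAE conditions and Jchain in acute and iguratimod-treated EAE, while the 2 Ms4a1 probes part with iguratimod.

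Counting 2-fold differences on any probe, 0 of the 5 genes measurable in the naive pair passed, against 8.07% of all genes higher and 2.63% lower. In acute EAE 2 genes were higher in the Cx47-deficient array (Jchain and Ms4a1) against a background of 6.71% higher (0.677% lower), with iguratimod 2 were higher (Cd79b and Jchain) against 2.6% and Ms4a1 was lower against 2.26%, and in chronic EAE 1 was higher (Cd79b) against 1.63% (1.29% lower). The background counts 1 probe per gene. Summed over the pairs there were 6 such differences, but only 1 after normexp background correction.

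In limma's fit of condition plus genotype over all 8 arrays, 0 of the 5 genes was called for genotype at a Benjamini-Hochberg adjusted p under 0.05, as were 0% of all 25884 genes. Cd79b differed by 0.99 ± 0.37 (log2, SE) with an unadjusted p of 0.0432 and an adjusted p of 0.830 in limma. It was higher in 3 of the 4 pairs, and was the 1 member with an unadjusted p under 0.05, which 4.42% of all genes reached. Jchain differed by 0.44 ± 0.32, Cd22 by 0.32 ± 0.21, Pax5 by 0.27 ± 0.14 and Ms4a1 by 0.10 ± 0.47. The sign for Ms4a1 turned under quantile normalization, median centring and the authors' values, without either naive array (-0.10) and without either acute array (-0.30), and that for Pax5 under normexp correction. The other probe of Ms4a1 (1.501 ± 0.72, A_55_P2802151) had a fitted difference with an adjusted p of 0.787 in limma's fit over probes, which called 0% of 39736 probes. It was dim on 3 of the 4 wild-type arrays. For Cd22 A_51_P448140, dim on every wild-type array, no genotype difference is given.

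The second comparison set acute EAE against naive mice. Cd79b was higher in both genotypes, 2.20-fold in wild type and 4.34-fold in Cx47-deficient mice, and so was Jchain, 1.74-fold and 4.71-fold. On any probe, 1 gene was 2-fold or more higher in wild type (Cd79b), against 3.35% of all genes, and 3 in Cx47-deficient mice (Cd79b, Jchain and Ms4a1), against 5.08%. Ms4a1 passed there only on A_55_P2802151 (at least 3.85-fold), while A_66_P120649, its brighter probe, was 1.14-fold lower. In Cx47-deficient mice 1 gene was also 2-fold or more lower, Cd22 on A_55_P2163795 (at least 2.20-fold), against 2.11%. Over both genotypes the fitted differences were 1.63 ± 0.53 for Cd79b (limma adjusted p = 0.508) and 1.52 ± 0.45 for Jchain (limma adjusted p = 0.430). The members called were 0 of 5, against 0.251% of all genes. Unadjusted, 2 of 5 were under 0.05, against 7.17%. The remaining genes differed by -0.48 ± 0.67 (Ms4a1), -0.05 ± 0.30 (Cd22) and -0.08 ± 0.20 (Pax5), and each of these signs turned when a single array was left out. The Cd22 value rests on A_55_P2016004: A_51_P448140 gave 2.20 ± 0.59 with an adjusted p of 0.390 in limma's fit over probes (0.0705% of probes called), and the mean of the gene's kept probes 1.08. Both naive arrays and 1 of the 2 acute arrays were dim on A_51_P448140, so no fold over both genotypes is given. In Cx47-deficient mice alone it was at least 1.68-fold higher. Ms4a1 A_55_P2802151 gave 0.07 ± 1.02, being dim in wild-type acute EAE and the brightest of all arrays in Cx47-deficient acute EAE.

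The next comparison set iguratimod-treated against untreated EAE. The labels do not say when the drug was given. All 5 tested genes had a fitted difference below 0 from untreated EAE, -0.97 ± 0.45 for Jchain, -0.68 ± 0.67 for Ms4a1, -0.64 ± 0.20 for Pax5, -0.52 ± 0.53 for Cd79b and -0.41 ± 0.30 for Cd22. None was called by limma (adjusted p 1.000 for each, 0% of all genes called). For Ms4a1 the sign turned without Cx47-deficient acute EAE (0.10) or the Cx47-deficient iguratimod array (0.37), A_66_P120649 was 1.62-fold higher with the drug in wild type, and A_55_P2802151 gave 0.068 ± 1.02. Unadjusted, 1 of 5 was under 0.05 (Pax5), against 2.11% of all genes, and Pax5 was dim on the wild-type iguratimod array. Over all genes 48.6% lay above 0. Jchain was 1.99-fold lower in wild-type and 1.93-fold lower in Cx47-deficient mice, nearly the same size, whereas Cd79b was 1.69-fold and 1.22-fold lower. Against naive mice, iguratimod-treated EAE had 0 of 5 members called (background 0.00386%) and 1 under an unadjusted p of 0.05 in limma (7.47%).

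**Figure D3:**
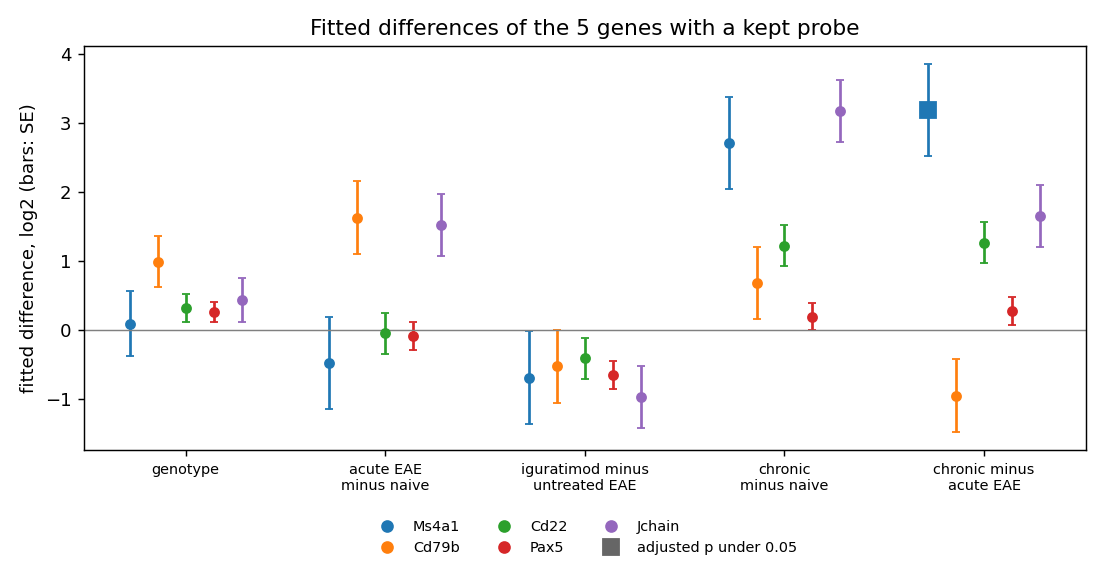
Fitted log2 differences (y axis) of the 5 tested genes in 5 comparisons (x axis), with bars of 1 SE from limma over 8 arrays. The square marks the only difference at an adjusted p under 0.05, Ms4a1 in chronic against acute EAE at 3.18. The chronic arrays enter the 2 comparisons on the right.

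The largest differences lay in the chronic comparisons, which set arrays of different slides against each other. Jchain was 8.35-fold higher in wild-type and 9.68-fold higher in Cx47-deficient chronic EAE than in naive mice, with a fitted difference of 3.17 ± 0.45 (limma adjusted p = 0.0552). Ms4a1 A_66_P120649 was 8.60-fold and 4.93-fold higher (fit 2.70 ± 0.67, limma adjusted p = 0.0828), and Cd22 A_55_P2016004 3.37-fold and 1.62-fold higher (fit 1.22 ± 0.30, limma adjusted p = 0.0811). Cd79b went apart by genotype: 1.35-fold lower in wild type and 3.46-fold higher in Cx47-deficient mice (fit 0.68 ± 0.53). Without the Cx47-deficient naive or chronic array its fitted difference was -0.093 or -0.028. Pax5 differed by 0.20 ± 0.20, a sign that turned under normexp, quantile normalization, median centring and the authors' values. None passed the test, against 0.947% of all genes called. Unadjusted, 3 of 5 were under 0.05, against 32.6%. Jchain passed in 4 of 17 alternative fits, with adjusted p from 0.0206 to 0.280 over all of them, and also at 0.0458 in limma's fit over probes, where 2.84% of probes were called. On any probe, 3 genes were 2-fold or more higher in wild type (Cd22, Jchain and Ms4a1), against 16.6% of all genes, and 3 in Cx47-deficient mice (Cd79b, Jchain and Ms4a1), against 8.55%. In Cx47-deficient mice Cd22 was also at least 2.56-fold lower on A_55_P2163795, where 2.29% of all genes were 2-fold or more lower.

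Against acute EAE, Ms4a1 was higher by 3.18 ± 0.67 and was the 1 member called (limma adjusted p = 0.0445), where 14.5% of all genes were called. Unadjusted, 3 of 5 were under 0.05, against 41.2%. It was 14.6-fold higher in wild-type and 5.62-fold higher in Cx47-deficient mice. The call passed in 8 of 16 alternative fits (adjusted p 0.00791 to 0.249), and in 2 of the 8 fits that left out an array. It did not pass without either naive array (0.0579 each), without wild-type or Cx47-deficient acute EAE (0.249 and 0.0859), or without either chronic array (0.233 and 0.0950). On the other Ms4a1 probe the fit gave 1.16 ± 1.02, and Cx47-deficient chronic EAE was 1.87-fold lower there than Cx47-deficient acute EAE. Cd22 differed by 1.27 ± 0.30 on A_55_P2016004 (limma adjusted p = 0.0503) and by -0.997 ± 0.59 on A_51_P448140, dim on both chronic arrays. In the fit over probes, where 19% were called, both Ms4a1 A_66_P120649 and Cd22 A_55_P2016004 passed (limma adjusted p = 0.0410 and 0.0466). Jchain differed by 1.65 ± 0.45 (limma adjusted p = 0.0627), Cd79b by -0.95 ± 0.53 and Pax5 by 0.28 ± 0.20, which turned under quantile normalization, median centring and the authors' values. Of the genes called, 62.5% were higher in chronic EAE, but 42.7% after median centring, 48.9% in the authors' values, 49.0% after quantile normalization and 51.2% after normexp. In chronic EAE against naive mice the share was 74.7%, and 57.4%, 41.7%, 57.9% and 50.5% in the same order. Median centring also moved the median of all genes from 0.02 to -0.38. Over all EAE states against naive mice, 0 of 5 members was called by limma (0.147% of all genes), with 2 of 5 unadjusted (8.72%).

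The wider B cell programme was read from 6 gene lists with 82 genes, of which 66 were tested. In acute EAE, 10 of the 16 tested genes of B cell receptor and coreceptor signalling were higher and 1 was lower at an unadjusted p under 0.05, against 5.41% and 1.75% of all genes, and 0 was called. The same shares apply to the lists below. Their median was 1.17, against -0.06 over all genes. Fcgr2b, the inhibitory Fc receptor, differed by 3.16 ± 0.33 (limma adjusted p = 0.0532), the coreceptor Cd72 by 2.21 ± 0.41 and the phosphatase Ptpn6 by 1.91 ± 0.37. Fcgr2b and Ptpn6 are also expressed by myeloid cells, as are Lyn and Vav1, also among the 10 higher, so these genes do not mark B cells alone. The lower gene was Bank1 (-0.83 ± 0.26), and Cr2 differed by -0.09 ± 0.17. For genotype, 3 of the 16 had a difference above 0 at an unadjusted p under 0.05 in limma. At that level 0 had one below 0, and 0 was called. Ptpn6 differed by 0.71 ± 0.26 and Fcgr2b by 0.50 ± 0.23 for genotype.

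Among B cell transcription factors, 3 of the 11 tested were higher in acute EAE at an unadjusted p under 0.05 and 0 was called, with a median of 0.27. Spib and the coactivator Pou2af1, which octamer-binding factors recruit in B cells, were well above background only in Cx47-deficient acute EAE (-4.14 and -4.41) and Cx47-deficient iguratimod-treated EAE (-4.22 and -4.76). They were dim on all 4 wild-type arrays. Both naive arrays and the wild-type acute array were dim for both genes, so no fold is given for acute EAE against naive mice. Irf8, shared with myeloid cells, differed by 2.13 ± 0.34 between acute EAE and naive mice. For genotype, 0 of the 11 was called and 0 had an unadjusted p under 0.05. The lymphoid factor Ikzf1 differed by 0.58 ± 0.25, while for Spib and Pou2af1, dim on every wild-type array, no genotype fold is given. Taking the 6 lists together, 8 of the 66 tested genes had a genotype difference above 0 at an unadjusted p under 0.05 in limma. At that level 0 had one below 0, and 0 was called. The shares over all genes were 3.32% above 0 and 1.1% below.

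Of the homing, survival and costimulation genes, 5 of 15 were higher in acute EAE unadjusted and 0 was called, with a median of 0.69. Cxcl13, the chemokine that draws B cells through Cxcr5, was dim in both naive arrays, -3.30 and -1.24 in acute EAE, -3.97 and -0.97 with iguratimod, dim in wild-type and -3.60 in Cx47-deficient chronic EAE. It was at least 7.98-fold higher in acute EAE than in naive mice (limma adjusted p = 0.109), and its fitted genotype difference was 1.71 ± 0.57 (limma adjusted p = 0.830). Cxcr5 itself was not kept. The lymphoid homing receptor Ccr7 differed by 2.81 ± 0.59 in acute EAE, where Cd40, dim in both naive arrays, was at least 1.45-fold higher. For genotype, Il7r, the interleukin 7 receptor, differed by 0.63 ± 0.32 and the survival receptor Tnfrsf13c by 0.61 ± 0.22.

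In the plasma cell and secretion list, 12 of 19 genes were tested. Mzb1, a chaperone of antibody secretion, was called in chronic EAE against naive mice (limma adjusted p = 0.0492), the only gene of the lists called there. It was well above background on 3 arrays, Cx47-deficient acute EAE at -4.22 and the chronic arrays at -4.99 and -4.78, and dim on both naive arrays. The fitted difference was 1.83 ± 0.23, but with the naive arrays dim only a bound of at least 1.31-fold is known. The call was lost in 13 of 16 alternative fits (adjusted p 0.0413 to 0.568), among them all 8 that left out an array. For acute EAE against naive mice Mzb1 had an adjusted p of 0.0557 in limma. Only 1 of the 2 acute arrays was above background, so no fold is given. Prdm1, the factor that drives plasma cell formation, differed by 0.94 ± 0.38 in acute EAE and by 0.88 ± 0.27 for genotype. In acute EAE 1 of the 12 was higher unadjusted, and the list's median was -0.02. The list names Ighm, Igkc, Ighg1, Ighg2c, Igha and Iglc1, and Tnfsf13 of the homing list, were not analysed here.

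Of the 7 tested genes of the early B lineage, 1 was higher in acute EAE unadjusted and 0 was called. That gene, Bst1, which stromal and myeloid cells also express, was dim in both naive arrays and at least 6.33-fold higher in acute EAE (limma adjusted p = 0.0647). Il7r differed by 1.12 ± 0.45 and Vpreb3, a relative of the surrogate light chain, by 0.47 ± 0.22. For genotype the early markers Flt3 and Cd24a differed by 0.19 ± 0.21 and -0.16 ± 0.18. Among 11 further mature B cell markers, Cd52, a surface peptide of many leukocytes, was called in acute EAE at 3.85 ± 0.37 (limma adjusted p = 0.0496). It read -0.38 and -0.47 in naive mice, 3.06 and 3.79 in acute EAE, 2.31 and 3.71 with iguratimod and 0.47 and 0.94 in chronic EAE. The call passed in 5 of 18 alternative fits (adjusted p 0.00833 to 0.362) and in 0 of the 8 that left out an array. The class II-loading modulator H2-Oa differed by 2.79 ± 0.48 and Ly6d by 2.69 ± 0.65. For genotype Cd52 differed by 0.63 ± 0.26.

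In chronic against acute EAE, 3 of the 66 list genes were called higher and 14 lower, against 9.07% and 5.44% of all genes, a split that moves with the scaling as given above. The higher genes were the complement receptor Cr2 (1.00 ± 0.17), the lymphoid factor Ikzf3 (2.47 ± 0.40) and the tetraspanin Cd37 (2.41 ± 0.41), but Ikzf3 and Cd37 turned sign when a gene's probes were averaged (-0.065 and -0.25). The lower genes were Cd52 (-2.72 ± 0.37), Bst1 (-3.38 ± 0.59), Fcgr2b (-1.80 ± 0.33), H2-Oa, Irf8, Spi1, Ptpn6, Plcg2, Vav1, Lyn, Dapp1, Cd86, Tnfrsf13b and Tnfsf13b, of which Lyn and Tnfsf13b turned sign with averaged probes (0.51 and 0.30). Spi1 was dim on both chronic arrays, so only a bound of at least 2.90-fold lower is known. Bst1 was dim on the Cx47-deficient chronic array, so its fitted value includes a dim signal. Several of the lower genes, such as Spi1, Lyn, Vav1 and Cd86, are also expressed by microglia and macrophages. Each of these calls passed at 5% in limma, and none held in more than 4 of the 8 fits that left out an array. Those of Cr2, Cd86, Tnfsf13b and Bst1 held in 0, and those of Lyn, Vav1, Dapp1, Ikzf3, Cd37 and Tnfrsf13b in 2.

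Markers of other immune cells also differed between the arrays. The mean log2 level of the T and NK cell list (10 tested genes) was -4.81 and -5.08 in naive mice, -2.01 and -1.23 in acute EAE, -2.99 and -1.32 with iguratimod, and -3.62 and -3.55 in chronic EAE. Its summed level ran from 1.29 to 2.18 in naive mice, 3.97 to 5.32 in acute EAE, 2.30 to 5.12 with iguratimod and 1.497 to 1.604 in chronic EAE. In naive mice 4 of 11 were well above background, in acute EAE 10 of 11, and Cd8a was dim on every array. The monocyte and macrophage list had a mean of -3.67 and -3.55 in naive mice, 0.08 and 0.99 in acute EAE, -0.60 and 0.41 with iguratimod, and -2.26 and -2.53 in chronic EAE, with summed levels of 3.82 to 4.95, 42.1 to 93.3, 30.3 to 65.2 and 8.66 to 9.38. The plasmacytoid dendritic cell list, from cells that can also make Jchain, had a mean of 1.00 and 0.76 in naive mice, 2.16 and 2.31 in acute EAE, 1.63 and 2.30 with iguratimod and 1.19 and 1.33 in chronic EAE, and Klk1 was dim on every array. In acute EAE against naive mice its genes Irf7, Bst2, Ccr9 and Cox6a2 differed by 4.10, 3.23, 1.60 and 0.82. Siglech, Pacsin1 and Tcf4 differed by -0.26, -0.05 and 0.02. The microglia list stood at 2.26 and 2.43 in acute EAE and 1.59 and 2.52 with iguratimod. By mean level the T and NK cell, monocyte and macrophage, plasmacytoid dendritic cell and microglia lists were thus all higher in the Cx47-deficient array of the acute and iguratimod pairs, as Cd79b and Jchain were. By summed level the plasmacytoid list was lower in the Cx47-deficient acute array (105.5 against 110.1) and higher in the Cx47-deficient iguratimod array (110.1 against 104.9). The neutrophil list was higher in the Cx47-deficient acute array (-1.07 against -1.86) and lower in the Cx47-deficient iguratimod array (-2.35 against -1.82). Their part in those differences was not tested. In these bulk samples fewer cells of a type and less RNA per cell cannot be told apart.

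**Figure D4:**
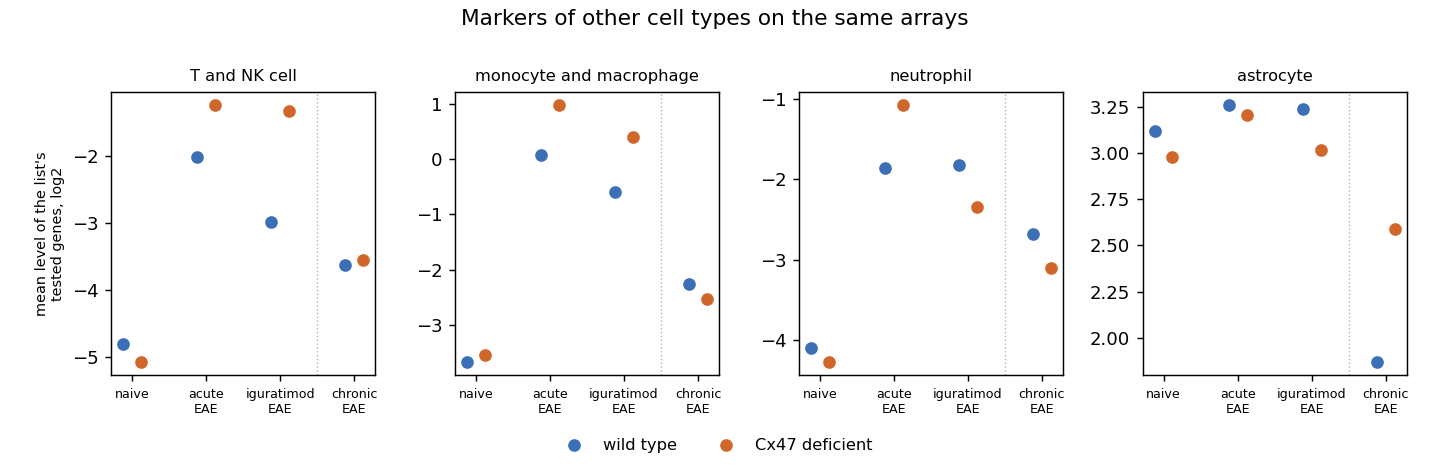
Mean log2 level of the tested genes (y axis, a scale per panel) of the T and NK cell, monocyte and macrophage, neutrophil and astrocyte lists on each array (x axis, condition), with wild type in blue and Cx47 deficient in orange. The T and NK cell means lie between -5.08 and -1.23 and are highest in the Cx47-deficient acute and iguratimod arrays.

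Over the 8 arrays, the genes with profiles most like a member were found by the root mean square difference of array-centred levels among 25883 genes. For Cd79b they included Gm16404 (0.352) and Slc39a4 (0.354), for Cd22 A_55_P2016004 Atp11b (0.0744) and A130094D17Rik (0.0771), for Pax5 Pde6h (0.126) and Gm550 (0.128), for Ms4a1 A_66_P120649 Gm34735 (0.234) and for Jchain LOC105247524 (0.363). None of these named genes belongs to the B cell lists. The other nearest features carry no gene symbol in the files, so whether any is a B cell gene was not determined. For Pax5, Ms4a1 A_66_P120649 and Jchain the closest of all was such a feature (0.0813, 0.224 and 0.358).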

How the data were processed

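Each array's deposited scanner file gives an intensity per spot. The software was Feature Extraction 10.7.1.1 (Agilent), per the file headers, though the submitters' processing notes give 9.5.1.1. The processed signal used is background-subtracted, per the file headers. The authors also deposited a value table, an intensity on a linear scale that is quantile normalized as judged from its values, used here only as an alternative. Flags and other columns were read as deposited. Value columns without a sample numbered 0.

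Signals were put on log2, each array's 75th percentile over non-control spots was subtracted, flagged outlier spots were left out, and spots of a probe were averaged. The first run took that percentile over averaged probes. The change was made after its results were seen, because the percentile over spots matched the value in the header of the array compared (Cx47-deficient acute EAE). Both are given in the closing section. Probes well above background on at least 2 of 8 arrays were kept, and the brightest stood for its gene (25884 genes). limma 3.58.1 in R 4.3.3 fitted condition plus genotype with 3 residual degrees of freedom (prior 2.12), Benjamini-Hochberg adjusted over all genes. The fit takes the genotype difference as equal in all conditions. It was tested on simulated data with the same spread for every gene, no slide effect and no varying genotype difference. That test therefore does not check this assumption. Of 56605 probes, 32994 were named by accession, 10224 by symbol, 520 by synonym and 12867 as in the files.

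Genes named from the lists were those called in any comparison, and the 3 largest differences of each list in acute EAE and for genotype. Bank1 was added as the signalling gene that was lower in acute EAE. The members and lists were chosen with earlier results of these data known. The number of arrays limits the precision. Alternatives covered background correction, normalization, the authors' values, the filter, the choice of probe, the slide, the genotype term and leaving out each array. Values of 2 genes the rules would name are not reported here.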

Additional observations from a re-analysis of the deposited data

Results flagged for a closer look

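Of 34 pairs of genotype differences that could be set against each other across conditions, 4 pointed in opposite directions and lay at least 2 apart on the log2 scale. None of these differences was tested, since each rests on 4 single arrays. Ms4a1 A_66_P120649 was higher in the Cx47-deficient array of the acute pair (1.28) and lower by a bound of 1.30 in the iguratimod pair, a gap of 2.58, and the gap to the naive pair was 2.002. The second Ms4a1 probe did not share this turn. On that probe, A_55_P2802151, the acute pair (at least 1.91 higher) and the chronic pair (-0.13) lay 2.05 apart. Cd79b was -0.17 in the naive and 2.05 in the chronic pair, a gap of 2.22.

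Among 6 kept probes of immunoglobulin genes outside the comparisons, 3 were dim on both naive arrays and well above background elsewhere. The first Igh-VJ558 probe was so on 2 of the other 6 arrays, both chronic (-5.04 in wild type and -5.63 in Cx47-deficient mice). The second Igh-VJ558 probe was so on 3, Cx47-deficient acute EAE (-4.78) and both chronic arrays (-5.44 and -4.70). Iglv1 was so on 2, both chronic (-5.54 and -5.62). The lowest signals called well above background were -5.49 on the Cx47-deficient acute array, and -5.82 and -5.80 on the wild-type and Cx47-deficient chronic arrays. The Iglv1 values lie near these, and the second Igh-VJ558 probe lies further above them in Cx47-deficient mice. Of the other 3 probes, Igkv4-72 was lower in chronic EAE (-3.13 and -3.03) than in naive mice (-2.32 and -2.55), Ighg3 stood at -3.18 and -2.97 against -3.73 and -4.15, and Ighv1-33, dim on the wild-type naive array and at -5.16 on the Cx47-deficient one, at -4.49 and -4.84.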

How the results depend on the processing

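Counts of members called stayed as reported, or within 1.5 times, in 116 alternative results and moved further in 21. In chronic EAE against naive mice, where 0 was called, 3 were called with normexp, 2 with probes well above background on all 8 arrays, and 1 each with median centring, without the genotype term and with each probe fitted by itself. Over all genes the calls there were 245 as reported, 3896 with normexp, 1029 with median centring and 907 without the genotype term. The filter on all 8 arrays gave 1811 of 20386 genes, and of the probes fitted by themselves 2.84% were called. In chronic against acute EAE, where 1 was called, normexp gave 3, and quantile normalization, the authors' values, the filter on all 8 arrays, each probe by itself and the percentile over averaged probes gave 2 each; no filter and the mean of probes gave 0, and leaving out an array gave 0 to 1. Of the 6 differences of 2-fold between single arrays, 2 passed 3-fold and 1 passed with normexp. The percentile over averaged probes was the first setting run, and the reported percentile over spots was chosen after seeing its results. The first setting called 124 genes in acute EAE (65 as reported), 10 with iguratimod against naive (1), 277 in chronic EAE (245), 4037 in chronic against acute EAE (3754) and 44 over all EAE states (38), and it put Cd22 at 1.19 in chronic against acute EAE, with an adjusted p of 0.0492 in limma. Over all genes, the acute EAE calls were 200 with normexp, 340 with median centring, 38 with quantile normalization or the authors' values, 201 with the filter on all arrays, 15 with no filter and 0 on slide 1 alone. Leaving out an array gave 0 to 11 calls in acute EAE, 1 to 3 in chronic EAE against naive mice, and 1 (without either acute array or wild-type chronic EAE) to 2446 (without either naive array) in chronic against acute EAE. The cause of these changes was not tested.

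Signs turned as follows. For genotype, Ms4a1 was -0.081 under quantile normalization, -0.0777 under median centring, -0.0784 with the authors' values, -0.10 without either naive array and -0.30 without either acute array (0.63 at the other end, without wild-type iguratimod), Pax5 -0.028 with normexp and Cd24a 0.016 without either naive array (-0.27 without Cx47-deficient chronic EAE). In acute EAE, Ms4a1 was 0.31 without wild-type EAE (-1.26 to 0.31 over the arrays left out), Pax5 0.084 without Cx47-deficient EAE (-0.25 to 0.084), and Cd22 1.08 with the mean of probes, 0.25 without Cx47-deficient naive and 0.14 without wild-type EAE (-0.34 to 0.25). Ms4a1 A_55_P2802151 in acute EAE was -0.0671 with quantile normalization, -0.12 with the authors' values, -0.76 without Cx47-deficient naive and -1.59 without Cx47-deficient EAE (-1.59 to 1.73). With iguratimod against untreated EAE, Ms4a1 was 0.10 without Cx47-deficient EAE and 0.37 without Cx47-deficient iguratimod (-1.74 to 0.37). In chronic EAE against naive mice, Cd79b was -0.093 without Cx47-deficient naive and -0.028 without Cx47-deficient chronic (-0.093 to 1.45), Pax5 -0.0946 with normexp, -0.28 with quantile normalization, -0.16 with median centring and -0.27 with the authors' values, and Cd22 A_51_P448140 -0.055 with normexp. In chronic against acute EAE, Pax5 was -0.25 with quantile normalization, -0.12 with median centring and -0.25 with the authors' values, Ms4a1 A_55_P2802151 -0.014 with normexp and -0.50 without wild-type EAE (-0.50 to 2.82), and with the mean of probes Lyn was 0.51, Tnfsf13b 0.30, Ikzf3 -0.065 and Cd37 -0.25.

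The genotype comparison is itself made over the 4 pairs of arrays matched by condition. By replicate number, no paired analysis was possible because each group has 1 array and all carry the same number. Signal over background limits Cd79a, Blk and the dim probes, for which only a bound is known.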
